A study of Mus musculus with 30 samples.

Results

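The MCM replicative helicase genes were described by RNA level and mRNA half-life in spermatogonial stem cell (SSC) lines. The set was a list of 8 genes (*Mcm2*, *Mcm3*, *Mcm4*, *Mcm5*, *Mcm6*, *Mcm7*, *Mcm8* and *Mcm10*) of the 14558 genes with an FPKM or a half-life. The genes were listed by name, with no threshold on any value. The lines came from testes of pups at postnatal day 7, of a mixed background made by crossing *Nanos2* TAG females with DBA/2J males, and were grown on mouse embryonic fibroblast feeder cells. Before RNA extraction the cells were depleted of feeders according to the labels, while the study's methods for RNA-seq describe sorting of SSCs away from them. In the TAG allele, NANOS2, an RNA-binding protein of undifferentiated spermatogonia, carries V5, Myc, His and EGFP tags at its N terminus. Line 4 was *Nanos2* TAG/+ and line 5 was *Nanos2* TAG/TAG, so both carried a tagged allele and only line 4 kept an untagged one. RNA-seq was 1 library per line from total RNA depleted of ribosomal RNA. SLAM-seq, in which RNA labelled with 4-thiouridine is followed as it decays, was 12 libraries per line, 2 technical replicates at each of 6 chase times from 0 to 1440 min, and gave 1 half-life per transcript and line. By the labels, RNA for RNA-seq was extracted with QIAzol from the TAG/+ line and with Trizol from the TAG/TAG line (the methods name QIAzol alone), so genotype, line and reagent cannot be told apart. With a single line per genotype no test between them was possible, and all comparisons below are descriptions.

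The MCM2-7 proteins form the ring-shaped motor that unwinds DNA ahead of the replication fork. During G1 phase the origin recognition complex, CDC6 and CDT1 load pairs of rings onto DNA, and in S phase CDC45 and the GINS complex turn each ring into an active helicase. MCM10 is not a ring subunit but is needed for this activation. MCM8 is a related helicase that works with MCM9 in homologous recombination and is required for gametogenesis in mice. MCM genes are classical targets of E2F transcription factors and are transcribed in cycling cells, among them the undifferentiated spermatogonia that SSC lines represent.

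Of the 8 genes, 7 had an FPKM and 7 had a half-life. *Mcm4* was listed with a half-life only and *Mcm8* with an FPKM only, so 6 genes carried both measurements. Both lines held spermatogonial markers, 10 of 11 with an FPKM and none at 0, with *Id4* lowest and *Sall4* highest by the mean of both lines. Their summed FPKM was 591 in the TAG/+ line and 1081 in the TAG/TAG line, where 6 of the 10 were higher and 4 were lower. The largest gap was that of *Bcl6b* (23.1 and 225 FPKM), which was the highest marker in the TAG/TAG line. The 4 markers of differentiating spermatogonia were each lower in the TAG/TAG line, with sums of 237 and 172. Of 8 fibroblast markers, 6 had an FPKM, from *Pdgfrb* (0.660 in the TAG/+ line and 6.75 in the TAG/TAG line) to *Fn1* (254 and 280), and they summed to 301 and 358. The 10 mitotic genes, which serve as a sign of cycling, summed to 1636 and 1674, with 5 higher and 5 lower in the TAG/TAG line. The 9 genes of a list of S phase cyclin and E2F genes summed to 328 in the TAG/+ line and 429 in the TAG/TAG line. Of these, 7 were higher and 2 lower in the TAG/TAG line. In bulk RNA, fewer cells of a type and less RNA per cell cannot be told apart, and the part of these marker levels in the differences below was not tested.

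The promoters of these genes are shown first, because the letters of E2F sites were found in most of them. A search of the RefSeq promoters (assembly GRCm38.p6, 250 bases before to 50 after the start) was made on both strands for TTTCCCGC, TTTCGCGC, TTTGCCGC and TTTGGCGC, whose matches can overlap. A promoter entry was matched for 7 genes, not including *Mcm4*, and 5 of them held at least 1 match. This compares with 704 of all 27025 genes (2.6%), with 4.81% of genes with a mean FPKM of at least 1, and with 14 of 38 other DNA replication genes (36.8%). In the following windows of 30 bases, printed 5′ to 3′ on the strand of the gene, capitals mark the matches.
Mcm3, chr1:20820265-20820294, minus strand: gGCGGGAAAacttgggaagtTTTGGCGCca
Mcm5, chr8:75109347-75109376, plus strand: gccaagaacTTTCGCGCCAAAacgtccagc
Mcm6, chr1:128359795-128359824, minus strand: gcgtatgctTTTGGCGCGAAAagtgcgtgc
Mcm7, chr5:138172030-138172059, minus strand: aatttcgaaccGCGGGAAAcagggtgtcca
Mcm8, chr2:132816161-132816190, plus strand: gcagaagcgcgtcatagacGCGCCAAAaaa
In *Mcm5* and *Mcm6* a pair of matches on opposite strands overlapped in a run of 12 bases, which began 153 bases before the start of *Mcm5* and 110 before that of *Mcm6*. *Mcm3* held 2 matches in 27 bases just after its start. *Mcm6* and *Mcm7* each held 1 further match elsewhere in the same promoter. *Mcm7* had another promoter entry, at chr5:138171217-138171516, that held no match. A gene was counted as matched if any of its entries held a match. *Mcm2* and *Mcm10* had none, which says only that these letters are not in this window. *Mcm2* was among the pair of most abundant MCM mRNAs and *Mcm8*, with a match, was the least abundant.

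The 3′ UTRs of the ring subunits differed in length and in letters. The principal coding transcripts of GENCODE M21 (GRCm38) have 3′ UTRs of 136 bases in *Mcm7*, 345 in *Mcm6*, 488 in *Mcm3*, 526 in *Mcm2*, 780 in *Mcm4* and 1115 in *Mcm5*. The 328 bases of *Mcm8* were short as well, whereas *Mcm10* has 1679. The median over 5752 transcripts with a half-life was 1217 bases, so every ring subunit lay below it. The sense strand was searched for the spellings of the consensus of NANOS2. These are ATGAAAT, its variant ATGAATT, the further spelling ATTAAAT, and lastly its variant ATTAATT. *Mcm4* held 4 matches, *Mcm2* and *Mcm10* held 1 each, and *Mcm3*, *Mcm5*, *Mcm6*, *Mcm7* and *Mcm8* held none. The share with a match, 3 of 8 (37.5%), was near the 41.8% of all transcripts with a half-life and above the 27.8% of the 3342 whose 3′ UTR was within the range of lengths of the 8 genes. At least 4 matches were found in 5.16% of all transcripts, and in 18 of the 2371 (0.759%) whose 3′ UTR was 390 to 1560 bases long, the range around that of *Mcm4*. The windows of *Mcm4* and *Mcm2* are shown for this difference among subunits of the ring, with matches in capitals and both genes on the minus strand.
Mcm4, chr16:15624155-15624184: cttgaaaaattATTAAATcaagttgccttc
Mcm4, chr16:15623979-15624008: tcaaggtATGAATTtcATTAATTtttatag
Mcm4, chr16:15623926-15623955: gccattgtagcATTAAATcttgtgtaaata
Mcm2, chr6:88883827-88883856: aaggctgtagcATTAAATgactatttattc
The 3′ UTR of *Mcm4* was also the richest in A and T of the ring, at 67.4% against 52.7% to 57.4% in the other subunits. A match is a description of the letters and not evidence of binding. CRAC libraries, which measure binding, were not analysed here.

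The mRNAs of the ring were long-lived, and their half-lives were close to each other. All 6 were above the median of all transcripts in both lines, which 39.8% of all 5806 transcripts were. *Mcm4* in the TAG/TAG line was above it only narrowly, at 226.5 min against 225.8 min. The median half-life of the ring was 364 min, as the mean of both lines, against 223 min over all transcripts. It was 356 min in the TAG/+ line and 367 min in the TAG/TAG line, so the lines differed far less than the ring differed from the median transcript. The shortest and the longest mean half-life of the ring, 261 and 489 min, were 1.87-fold apart. The CCT chaperonin and the 20S proteasome, described below, had longer medians, at 455 and 423 min.

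*Mcm6*, whose protein contacts the loading factor CDT1, had the longest half-life of the ring. It was 512 min in the TAG/+ line and 466 min in the TAG/TAG line, at percentile 93.7 of all transcripts for the mean. No other subunit reached these values in either line. *Mcm6* lies at chr1:128331590-128359664 on the minus strand (GRCm38, as for all positions here).

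*Mcm7* and *Mcm5* followed and could not be ordered. *Mcm7*, a subunit of the core that has helicase activity together with MCM4 and MCM6, had half-lives of 379 and 365 min in the TAG/+ and TAG/TAG lines. *Mcm5*, which with MCM2 forms the gate through which DNA enters the ring, had 370 and 374 min. The values of *Mcm5* lay between those of *Mcm7*. Their means were both at percentile 86.8. *Mcm7* (chr5:138164583-138172422, minus strand) overlaps the annotated genes *Cops6* and *Ap4m1* on the opposite strand and holds the microRNA genes *Mir25*, *Mir93* and *Mir106b*, and the other 7 genes overlap no annotated gene. *Mcm5* lies at chr8:75109569-75128439 on the plus strand.

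*Mcm2* (chr6:88883474-88898780, minus strand), whose protein also binds histones H3 and H4, came next. Its half-life was 342 min in the TAG/+ line and 369 min in the TAG/TAG line, and it was the ring subunit with the largest rise, of 7.96%. The TAG/TAG value was above that of *Mcm7* in the same line, so the order of *Mcm2* and *Mcm7* was not the same in both lines. *Mcm3* (chr1:20802968-20820312, minus strand), the neighbour of MCM5 in the ring, was lower in both lines, at 311 and 302 min.

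*Mcm4* was the subunit with the shortest half-life and the largest difference between the lines. MCM4 is a main substrate of the kinase CDC7-DBF4, which triggers origin firing. The half-life of *Mcm4* (chr16:15623897-15637400, minus strand) was 296 min in the TAG/+ line, close to *Mcm3*, and 226 min in the TAG/TAG line, a difference of -23.5%. These were percentiles 76.8 and 50.2 of all transcripts, so in the TAG/TAG line *Mcm4* sat at the median. Of all transcripts, 35.9% were further apart between the lines than *Mcm4*. A difference of this size was therefore common.

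*Mcm10* had the shortest half-life of the 7 genes, with 211 min in the TAG/+ line and 199 min in the TAG/TAG line. Both values were below every ring subunit and below the median transcript. *Mcm10* lies at chr2:4989714-5012791 on the minus strand. *Mcm8* (chr2:132816141-132844197, plus strand) had no half-life.

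**Figure D1:**
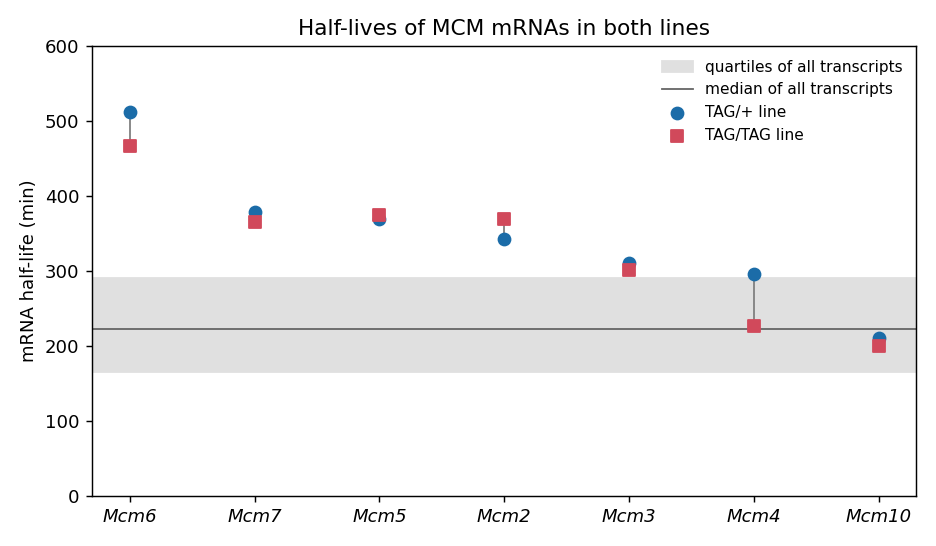
Half-life in minutes of the 7 MCM mRNAs with a value, in order of the mean of both lines; each point is the 1 half-life fitted for a line, the grey band spans the quartiles of all 5806 transcripts (165 to 291 min) and the grey line is their median. The ring subunits lie between 226 and 512 min, *Mcm10* lies below the median in both lines, and only *Mcm4* shows a wide gap between the lines.

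All 14 of these half-lives fell between the chase times of 120 and 540 min, where no library was taken. The same held for 84.6% of all transcripts in the TAG/+ line and 80.7% in the TAG/TAG line. The half-lives came without an error, so their precision is unknown. The difference between the lines is no measure of it alone, since it also holds any difference of line and genotype. The median absolute log2 difference in half-life was 0.08 over the 6 ring subunits and 0.27 over all transcripts.

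Evenness within the complex was described by the SD of log2 half-life over its subunits. For the ring it was 0.30 for the mean of both lines, 0.28 in the TAG/+ line and 0.35 in the TAG/TAG line. All transcripts had an SD of 0.73. The 1167 transcripts in a similar range of RNA level, with a mean FPKM of 75.7 to 1042, had 0.61. The ring was thus narrower than transcripts at large on both counts, without a test of this difference.

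Other multi-subunit complexes ranged from as narrow as the ring to much wider. The CCT chaperonin, a ring of 8 subunits that folds actin and tubulin, had an SD of 0.33 and half-lives from 308 min (*Cct4*) to 566 min (*Cct8*). The 20S proteasome, the proteolytic core particle, had 0.40 over 11 of 14 subunits, from 263 min (*Psma1*) to 713 min (*Psmb1*). By line its SD was 0.51 in the TAG/+ line and 0.35 in the TAG/TAG line, where the ring also had 0.35. *Psma1* had 178 min in the TAG/+ line and 349 min in the TAG/TAG line. The origin recognition complex had 0.43 over 5 of 6 subunits, from 118 min (*Orc1*) to 243 min (*Orc2*). By line it had 0.39 in the TAG/+ line and 0.77 in the TAG/TAG line, near the 0.84 of all transcripts in the latter. *Orc1* had 166 min in the TAG/+ line and 70.4 min in the TAG/TAG line. The CCT chaperonin had 0.31 in the TAG/+ line and 0.37 in the TAG/TAG line. GINS, the partner of the active helicase, ran from 87.9 min (*Gins3*) to 319 min (*Gins4*) over 3 subunits, and the RFC clamp loader from 246 min (*Rfc1*) to 685 min (*Rfc4*) over 5. The SD of the MCM2-7 ring was close to that of the CCT ring, and no test of these differences was made. With *Mcm10* added, the SD over 7 MCM mRNAs was 0.41. Gene lists that are not complexes varied too, with 0.43 over 9 mitotic genes, 0.88 over 8 S phase cyclin and E2F genes and 0.27 over 3 fibroblast markers.

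In half-life the ring also stood above most mRNAs of the factors that load and activate it. These factors were lower in RNA level, with a median FPKM (mean of both lines) of 25.8 for the loading list and 21.8 for the activation list. The 5 ring subunits with an FPKM had a median of 218. The part of level in these differences of half-life was not tested. Of all transcripts, 66.0% had a mean half-life below that of *Mcm4*, the shortest of the ring. In the 8 of 9 origin recognition and loading genes with a half-life, from *Cdc6* (84.5 min), which helps load the ring, to *Gmnn* (254 min), the inhibitor of CDT1, every mean was below the shortest of the ring, and the median was 191 min. The gap at its narrowest point, from *Gmnn* to *Mcm4* at 261 min, was small. In the TAG/+ line it was narrow too, with *Gmnn* at 291 min and *Mcm4* at 296 min. In the TAG/TAG line the ranges overlapped, since *Orc2* had 263 min and *Mcm4* 226 min. Of 10 of the 13 helicase activation genes, from *Gins3* (87.9 min) to *Gins4* (319 min), both of them GINS subunits, 8 were below the range of the ring and 2 within it. *Clspn* (247 min) and *Tipin* (223 min), which protect the fork, were below it.

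Genes of the polymerase and clamp list reached the range of the ring more often. Of 15 of the 23 polymerase and clamp genes, 5 were below the range of the ring, 7 within and 3 above, with a median of 283 min, from *Fen1* (208 min), the flap nuclease, to *Rfc4* (685 min), a clamp loader subunit. In nucleotide supply the ribonucleotide reductase subunit *Rrm1* had 359 min and the thymidylate synthase gene *Tyms* 78.1 min. Over all 35 of 48 DNA replication genes outside the MCM family with a half-life, 23 were below the ring, 9 within it and 3 above. Their median of 226 min was near that of all transcripts. The counts were also near the shares of all transcripts, of which 66.0% were below the lower end of the ring (*Mcm4*) and 93.7% below its upper end (*Mcm6*).

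Cell cycle genes outside replication were mixed. The S phase cyclin and E2F list had a median of 161 min, from *Ccne2* (130 min), which encodes a cyclin of the G1 to S transition, to *Ccna2* (789 min), the cyclin A gene. *Ccna2* differed widely by line, at 544 min in the TAG/+ line and 1035 min in the TAG/TAG line. The mitotic list had a median of 226 min, from the kinase gene *Aurka* (138 min) to the topoisomerase gene *Top2a* (349 min). Below the range of the ring lay 6 of 8 genes of the first list and 5 of 9 of the second. These counts were not far from the share of all transcripts below it, 66.0%.

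**Figure D2:**
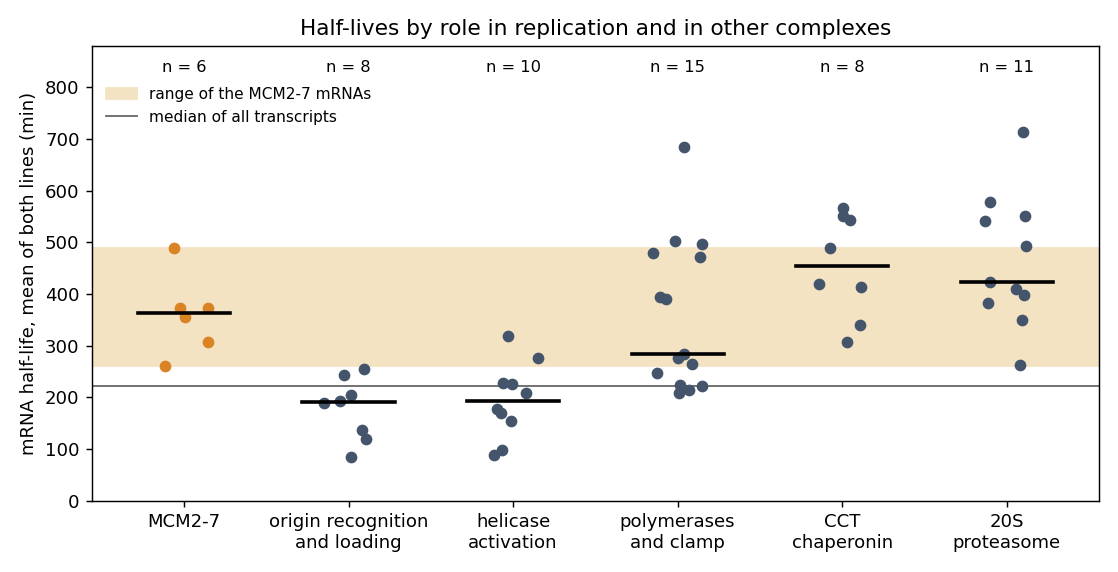
Half-life in minutes (mean of both lines) of MCM2-7 mRNAs beside lists of other replication genes and complexes; each point is a gene, black bars are medians, n is the number of genes with a half-life, and the coloured band spans 261 to 489 min, the range of the MCM2-7 mRNAs. All 8 loading genes lie below the band, where 66.0% of all transcripts lie, and none of the CCT or 20S subunits do.

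MCM2-7 mRNAs were abundant. Levels are FPKM as deposited, which are scaled by the mean length of the annotated transcripts of a gene. *Mcm7* had 502 FPKM in the TAG/+ line and 541 in the TAG/TAG line, and *Mcm2* had 476 and 566. These were both at percentile 98.8 of 13904 genes, and they could not be ordered because their values overlapped. *Mcm3* (191 and 244), *Mcm6* (197 and 155) and *Mcm5* (131 and 172) formed a lower group, whose neighbours overlapped too. All 5 were at percentile 94.2 or above.

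*Mcm10* and *Mcm8* were lower than every ring subunit with an FPKM. *Mcm10* had 81.6 FPKM in the TAG/+ line and 81.3 in the TAG/TAG line. *Mcm8* had 7.56 and 10.9, from 201 and 313 reads, on either side of the median gene, which was at 10.2 in the TAG/+ line and 10.5 in the TAG/TAG line. The reads behind the other 6 genes ranged from 1626 (*Mcm10*, TAG/+ line) to 8860 (*Mcm2*, TAG/TAG line).

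The gap between *Mcm2* or *Mcm7* and the other subunits depended on the length used. *Mcm7* has 10 annotated transcripts with a mean of 1068 bases, while its principal transcript has 2962 bases, and *Mcm2* has 7 with a mean of 1333 against 3371. *Mcm6*, with 2081 against 2910 bases, was affected least of the ring. On the length of the principal transcript the mean level was 206 FPKM for *Mcm2*, 188 for *Mcm7*, 126 for *Mcm6*, 125 for *Mcm3* and 89.5 for *Mcm5*. The range over these 5 subunits was then 2.30-fold, down from 3.44-fold. The SD of log2 level fell from 0.86 to 0.49. *Mcm10* (30.6 FPKM) and *Mcm8* (7.09 FPKM) remained lowest.

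**Figure D3:**
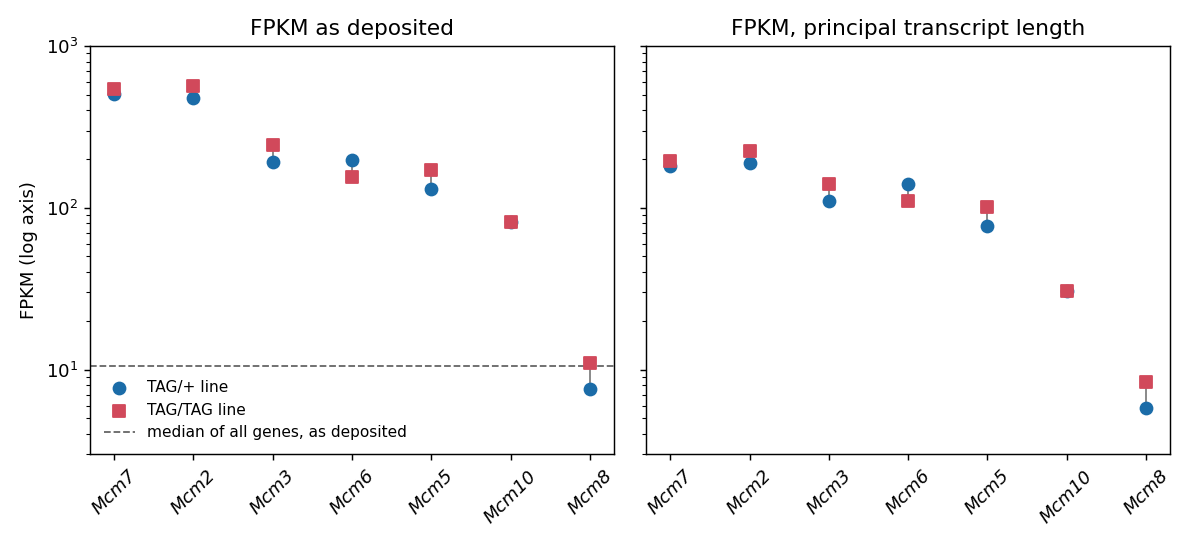
FPKM on a log axis of the 7 MCM genes with a value, as deposited (left) and rescaled to the length of the principal transcript (right); each point is 1 library and the dashed line is the median of all genes. *Mcm2* and *Mcm7* lead on both scales, by less on the right, and *Mcm8* lies near the median gene on the left.

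Level and half-life did not order the subunits alike. *Mcm6*, with the longest half-life, was below *Mcm2* and *Mcm7* in level in both lines and on both lengths, and *Mcm2*, one of the pair with the highest level, was the fourth of 6 by mean half-life. The ring was also placed among the 1167 transcripts with a mean FPKM of 75.7 to 1042, whose median half-life was 290 min. There the median of the ring was at percentile 70.0, against 86.1 among all transcripts. *Mcm6* was at percentile 85.8, *Mcm3* at 56.0 and *Mcm10*, whose level lies near the lower end of this range, at 11.8. *Mcm4*, which has no FPKM here, would be at 36.1 by its half-life alone.

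No MCM gene with a value in both lines differed by more than 1.5-fold in level or in half-life. In level the ring was nonetheless close to genes at large, with a median absolute log2 difference of 0.34 against 0.40. In RNA level, 34.3% of the 11480 genes with at least 1 FPKM in both lines differed by more than 1.5-fold, and 0 of the 7 MCM genes did. In half-life, 20.7% of all 5806 transcripts differed by more than 1.5-fold, and again 0 of 7 did.

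Within that limit 4 of the 5 ring subunits with an FPKM were higher in the TAG/TAG line. Of the 11480 genes with at least 1 FPKM in both lines, 5608 were higher there. The folds, with 95% intervals that cover counting error only, were 1.31 for *Mcm5* (1.25 to 1.37), 1.28 for *Mcm3* (1.22 to 1.33), 1.19 for *Mcm2* (1.15 to 1.23) and 1.08 for *Mcm7* (1.04 to 1.12). *Mcm6* was lower instead, at 0.788 (0.754 to 0.823). The median of the 5 log2 differences was 0.25, while that of all genes was -0.02. None of these 5 intervals included 1, but the variation between cultures of 1 line is unknown. Differences of this size were common, since the median absolute log2 difference was 0.40 over all genes and 0.34 over the ring.

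*Mcm8* had the largest fold of the set, 1.45, and its interval of 1.21 to 1.74 included 1.5. *Mcm10* had a fold of 0.996 (0.931 to 1.07), and 99.2% of genes differed more. For *Mcm10* no difference was detectable at this depth.

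In half-life 5 of 7 genes were shorter in the TAG/TAG line, as were 2667 of all 5806 transcripts. Apart from *Mcm4*, the differences ran from -9.02% in *Mcm6* to 7.96% in *Mcm2*. *Mcm5* differed by 1.27%, *Mcm3* by -2.89%, *Mcm7* by -3.61% and *Mcm10* by -5.28%. Among all transcripts, 95.8% were further apart between the lines than *Mcm5*, and 71.6% were further apart than *Mcm6*. In *Mcm6* level and half-life were both lower in the TAG/TAG line, in *Mcm2* and *Mcm5* both were higher, and in *Mcm3* and *Mcm7* the level was higher and the half-life shorter.

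**Figure D4:**
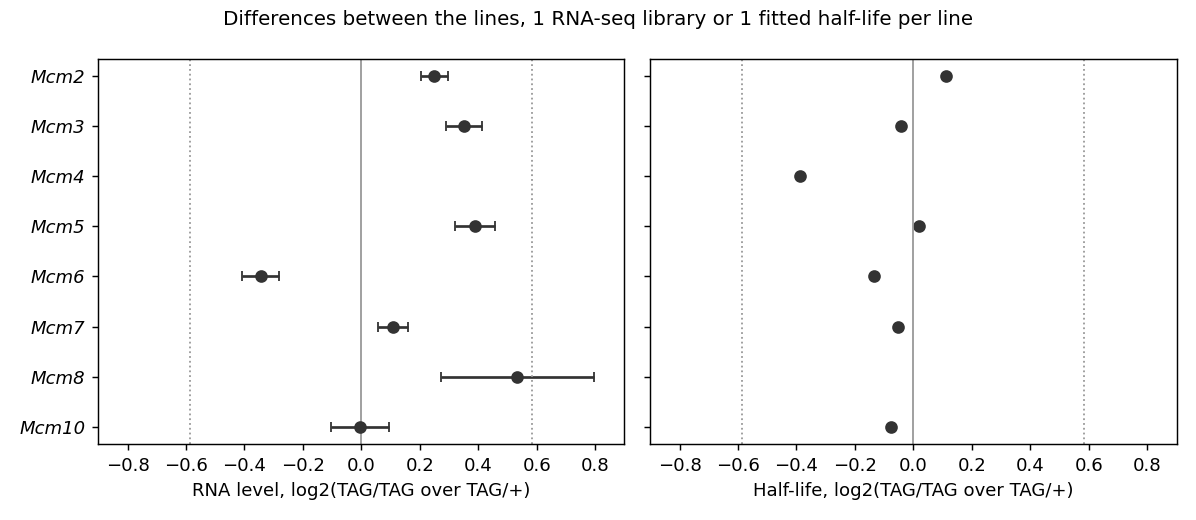
Log2 difference, TAG/TAG over TAG/+, of RNA level (left, with 95% intervals for counting error) and of half-life (right, without an error) for each MCM gene; dotted lines mark 1.5-fold. No point passes 1.5-fold, *Mcm6* is lower in level while *Mcm2*, *Mcm3*, *Mcm5*, *Mcm7* and *Mcm8* are higher, and *Mcm4* has the largest difference in half-life.

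The genes whose 4 values (level and half-life in each line, on the log2 scale) lay nearest to the mean of the 5 ring subunits with both measurements were *Ints3*, *Surf4*, *Stag3*, *Ssrp1* and *Top2a*, of 5138 other genes. *Ints3*, an Integrator complex subunit gene, had 284 and 302 FPKM and half-lives of 376 and 399 min. Within the DNA replication genes *Rpa2*, *Mcmbp*, *Lig1*, *Pole* and *Pold2* were nearest of 34. *Mcmbp*, which encodes a protein that binds MCM subunits, had 207 FPKM in the TAG/+ line and 236 in the TAG/TAG line, with half-lives of 318 and 300 min. The ring subunits themselves were not nearest to this mean, since 74 other genes were closer than *Mcm3*, the nearest subunit, and 340 were closer than *Mcm2*.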

How the data were processed

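The RNA-seq table held FPKM values that the authors computed per gene, 1 library per line (50 bp single-end reads). The aligner and counter are not given in the sources used here for this table, and the submitters' processing notes list kallisto and DESeq2 without a role. The authors obtained half-lives in minutes from conversion rates (SlamDunk), by fitting a first-order decay over 12 libraries per line, and deposited them without an error or depth. Columns and tables were assigned to the lines from their names. Samples were grouped by genotype and assay from their labels.

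Whole reads were recovered from FPKM and the mean length of annotated transcripts (GENCODE M21, GRCm38). Within a tolerance of 0.02 reads, 100% of the values of 13867 genes came out whole. The library sizes that gave this were 10908790 (TAG/+) and 11738620 (TAG/TAG), while the recovered reads summed to 10931439 and 11627842. The TAG/+ size was below its own reads, so these sizes are scaling values and not read totals. How the libraries were scaled to each other is not stated. Exact 95% intervals of folds used these reads and cover counting error only. Log2 differences of FPKM used a pseudocount of 0.1, and counts past 1.5-fold used genes with at least 1 FPKM in both lines. No p-values were computed. Scripts (Python 3.11.15, numpy 2.4.6, pandas 2.3.3, scipy 1.17.1, matplotlib 3.10.9) were tested on simulated data.

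Named were the 8 MCM genes, the shortest and longest half-life of each list or complex, the 5 nearest genes, and the lowest and highest marker. Other genes named for the point at which ranges meet (*Orc2* beside *Mcm4*), for wide complexes (*Rfc1*), for a large gap (*Bcl6b*) or as the only members with a value (*Clspn* and *Tipin*) were chosen after their values were seen. Members and lists were chosen with earlier results of these data known. Alternatives covered the pseudocount, centring, fold limits, each line alone, the background and gene length. CRAC libraries were not analysed here.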

Additional observations from a re-analysis of the deposited data

How the results depend on the processing

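Of 23 alternatives, 14 left the value within the spread used for it or, for counts, which have no spread, unchanged. For some of them this was fixed beforehand. No alternative reversed a direction. Only the differences between the lines in level and half-life could reverse, since the other values cannot be negative. The counts of MCM genes past 1.5-fold stayed at 0 under a pseudocount of 1 for FPKM and under centring for half-life. By construction, a limit of 2-fold and no minimum FPKM could not change a count of 0, since all 7 genes passed the minimum. The half-life spread of the ring, an SD of log2 of 0.30, was 0.41 with *Mcm10* added, and 0.24 without *Mcm4* or 0.22 without *Mcm6*, which were left out after seeing the data. Given as a ratio of longest to shortest half-life, a different scale, it was 1.87. The background SD of 0.73 was 0.61 both for transcripts of at most 540 min in both lines and for those with an FPKM near that of the ring. The median half-life of the ring was at percentile 86.1 of all transcripts and at 70.0 among those of similar FPKM, a comparison added after seeing the data. The FPKM spread of 0.86 was 0.89 in the TAG/TAG line alone and 0.49 on the length of the principal transcript, also added later. No paired analysis was possible because the lines have 1 RNA-seq library and 1 fitted half-life per transcript each, and no result came from a test. No replicate could be left out for the same reason. No depth was given for the half-lives, so their precision is unknown. *Mcm8*, with 201 and 313 reads, was the least precise level.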
